A study of Mus musculus with 12 samples.

Results

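The genes described here are the 4 thrombospondins Thbs1, Thbs2, Thbs3 and Thbs4, the matricellular genes Sparc and Sparcl1, and the glypicans Gpc4 and Gpc6, whose products are known as synapse-organising factors released by astrocytes. They were taken by name and matched by Ensembl gene identifier, 8 of the 24590 genes listed in at least 1 mouse. The set was chosen by Thbs4, selected on its measured FPKM because it was higher in the exon 7 knockout, so every knockout difference of that line is a description here and carries no test. Whole hippocampi of 12 mice were sequenced, 3 in each of 4 groups, from 2 lines deleted at different places in Shank2, which encodes a postsynaptic scaffold. Exons 6 and 7 are missing in the first (the exon 6-7 line) and exon 7 alone in the second (the exon 7 line), and each gave knockout mice and wild-type mice, labelled as male littermates of mixed C57BL/6J and C57BL/6N strain. The labels give an age of 8 to 15 weeks for the mice of the behavioural experiments. No cell type was sorted, and the labels used here name no promoter, Cre driver or drug in any group.

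Thrombospondins are large secreted glycoproteins of the extracellular matrix. Astrocytes release them, and at excitatory synapses they are known to act through the calcium channel subunit encoded by Cacna2d1. Sparcl1, also called hevin, is known to bridge neurexins and neuroligins across the synaptic cleft, and its relative Sparc is known to oppose that action. The glypicans are heparan sulphate proteoglycans held at the cell surface by a lipid anchor. Released glypicans of astrocytes are known to bring AMPA receptors to young synapses by way of neuronal receptors that include the receptor protein tyrosine phosphatases.

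The promoter windows of Thbs4 and Thbs3 are shown because these genes carried the widest knockout difference of the exon 7 line and the fall between the lines among the thrombospondins. Each is the 250 bases before the gene's start, from RefSeq on GRCm38.p6, written 5′ to 3′ on the gene's strand. Capitals mark exact matches on either strand to 4 motifs. The TATA box was searched as TATAAA. The GC box, a site for Sp family factors, was searched as GGGCGG. The box known for NF-Y was searched as CCAAT, and the AP-1 site of Fos and Jun proteins as TGACTCA. Matches did not overlap one another in these windows. The Thbs4 window is chr13:92794819-92795068 on the minus strand, and the Thbs3 window is chr3:89214930-89215179 on the plus strand.
Thbs4: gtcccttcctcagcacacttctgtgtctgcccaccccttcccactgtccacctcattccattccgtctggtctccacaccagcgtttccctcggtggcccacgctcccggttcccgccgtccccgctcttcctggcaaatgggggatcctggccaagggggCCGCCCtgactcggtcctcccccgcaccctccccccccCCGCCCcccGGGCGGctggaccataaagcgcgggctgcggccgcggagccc
Thbs3: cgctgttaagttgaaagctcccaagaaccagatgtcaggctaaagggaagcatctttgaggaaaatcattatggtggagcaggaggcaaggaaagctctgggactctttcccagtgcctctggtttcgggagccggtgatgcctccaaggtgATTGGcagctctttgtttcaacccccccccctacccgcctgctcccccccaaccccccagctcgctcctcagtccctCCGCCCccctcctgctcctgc
The Thbs4 window held 3 GC boxes, 19 CpG dinucleotides and 70.8% G and C. The Thbs3 window held 1 GC box, 1 CCAAT box, 6 CpG dinucleotides and 58.8% G and C. Over the 32851 windows of the same length the medians were 52.4% G and C and 6 CpG dinucleotides, 32.7% held a GC box, 33.8% a CCAAT box, 12.4% a TATA box and 4.46% an AP-1 site. These matches describe the letters of the windows and not bound sites. A window was found for 5 of the 8 genes.

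Levels are FPKM, sequenced fragments relative to transcript length and library size, divided by a factor per library (0.919 to 1.07) that brings the libraries to a common scale, and are called scaled FPKM. FPKM keep no read totals, so the depth behind a value is unknown, and the libraries listed 19515 to 20334 genes. Shank2 checked the labels in the exon 6-7 line, with 14.4, 13.8 and 14.9 scaled FPKM in the wild-type mice and 6.22, 7.02 and 6.15 in the knockouts (log2 difference -1.04, SE 0.119, limma adjusted p = 0.0111), a call that was lost without WT778, WT865 or KO776 (adjusted p up to 0.110). In the exon 7 line it lay at 36.0 to 44.1 in wild-type and 33.2 to 44.6 in knockout mice, so that the gene total does not check those labels. All 16 astrocyte markers were listed in every group, with sums of 2398 to 2887 scaled FPKM in exon 6-7 wild types, 2316 to 2579 in their knockouts, 2369 to 2517 in exon 7 wild types and 2417 to 2511 in their knockouts. All 10 markers of excitatory hippocampal neurons were also listed in every group. A set of 4 libraries stands apart (set A; the other 8 are set B), 1 in each group: WT778, KO776, WT628 and KO969. They do not list ENSMUSG00000095746, a gene at 218 to 435 FPKM in each of the other libraries.

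Sparcl1 was the highest of the 8 genes in every mouse, from 481 to 890 scaled FPKM, and ranked between 31 and 121 among the genes listed in a mouse. Sparc followed at 120 to 228, then Thbs3 at 23.9 to 57.3, and this order held in 12 of 12 mice. Gpc4 came next at 10.6 to 14.3 and Thbs4 at 2.61 to 13.9, with Gpc4 above Thbs4 in 10 of 12 mice. The exceptions were the exon 7 knockouts KO990 and KO994. Gpc6 (0.996 to 3.90) lay above Thbs2 (0.628 to 1.78) in 12 of 12 mice, and Thbs2 above Thbs1 (0.320 to 1.74) in 11 of 12. With a mean of 0.962 scaled FPKM, Thbs1 fell under the minimum mean of 1 for the test across genes, and 7 of the 8 genes were among the 14212 tested. In bulk tissue, fewer cells of a type and less RNA per cell cannot be told apart, for any of these levels.

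**Figure D1:**
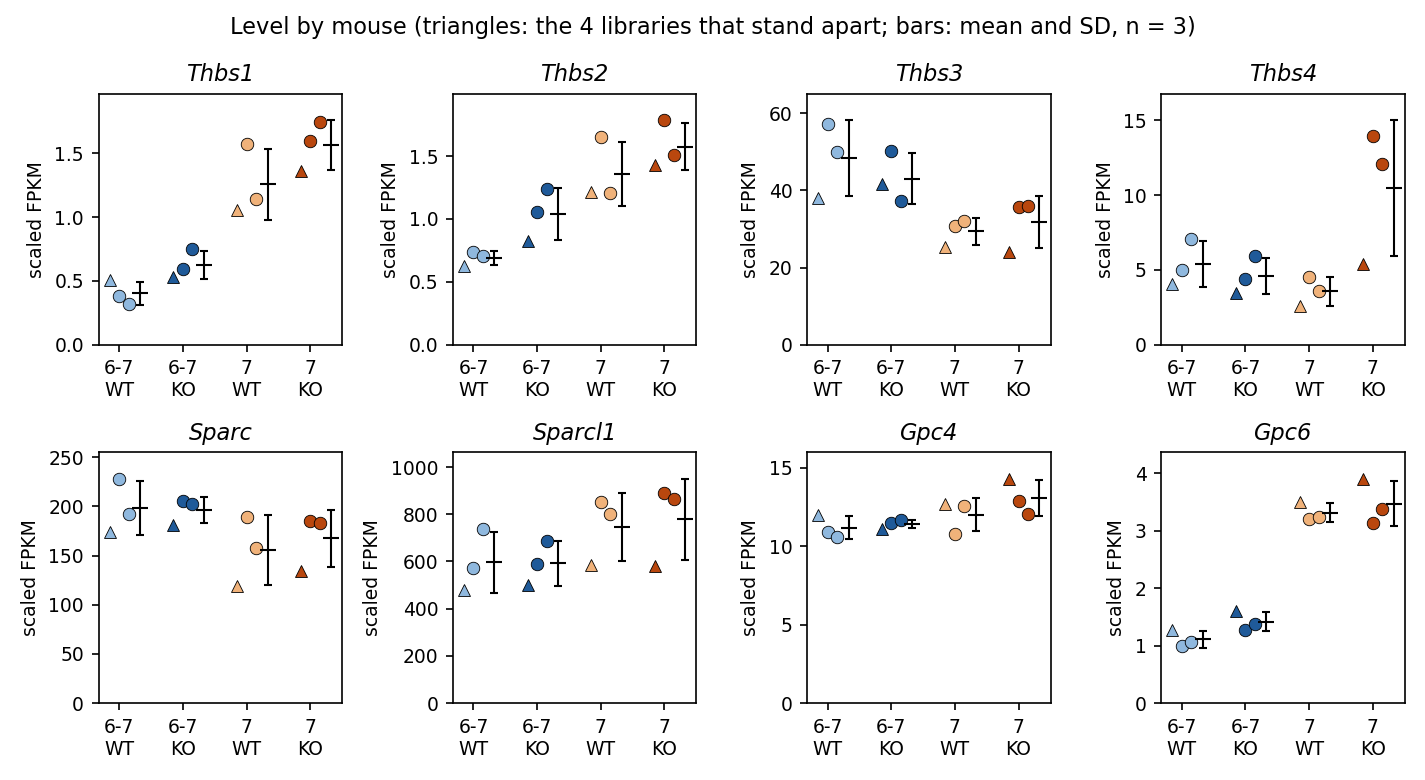
Scaled FPKM (vertical axes, from 0) of the 8 genes in the 12 mice by group, with the mean and SD of each group of 3 beside the points and triangles for the 4 libraries of set A. Thbs4 is at 12.1 and 13.9 in a pair of exon 7 knockouts and at most 7.06 elsewhere, while Gpc6 is above 3 in the exon 7 line and at most 1.60 in the exon 6-7 line.

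Thbs4 was highest in the exon 7 knockouts, and 2 of the 3 set the level of the group. Thbs4 (ENSMUSG00000021702, chromosome 13, 92751590 to 92794818, minus strand, GENCODE M21 on mm10) is a pentameric thrombospondin known from reactive astrocytes, tendon and muscle. In the exon 7 line it was at 2.61, 4.55 and 3.59 scaled FPKM in wild types (WT628, WT993, WT999) and at 5.37, 13.9 and 12.1 in the knockouts KO969, KO990 and KO994. Every knockout lay above every wild-type mouse, with KO969 close to the wild types and KO990 and KO994 well above every other mouse of either line. KO969 and WT628 are the set A mice of this line, and the set A mouse was the lowest for Thbs4 in each group of both lines. Wild types averaged 3.58 ± 0.968 and knockouts 10.5 ± 4.52 (SD, n = 3 each), a ratio of 2.92 and a difference of 1.25 in log2(scaled FPKM + 1), a scale on which low genes show less than their full fold change. This is the value the set was built on and is given with no test. It stood in rank 9 of the 14212 genes by rise. The difference was 0.82 in set A, with 1 mouse a group, and 1.47 in set B. Leaving out 1 mouse gave 1.02 to 1.63, and the other settings of the analysis 0.81 to 1.497.

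Marker sums of neighbouring tissue stood as follows in the same mice. The 12 choroid plexus markers summed to 1688, 1768 and 1459 scaled FPKM in the exon 7 wild types and to 1704, 2237 and 2344 in KO969, KO990 and KO994, so that the pair high in Thbs4 was also the highest for that list. The 12 markers of meninges and fibroblasts summed to 120 to 132 in the wild types and 138 to 152 in the knockouts, without overlap. Singly, 10 of the 12 had a knockout difference above 0, and 0 were higher without overlap (3.27% of all genes). The median log2 distance of these markers from the line's mean overlapped, at -0.17 to 0.06 in wild types and -0.03 to 0.21 in knockouts. The 10 oligodendrocyte markers all had a knockout difference below 0, where 46.7% of all genes were above 0. They summed to 5351 to 5512 in wild types and 4816 to 5144 in knockouts, also without overlap. Singly, 1 of the 10 was lower without overlap. Their median log2 distance from the line's mean overlapped, at -0.05 to 0.09 in wild types and -0.12 to 0.02 in knockouts. The part of these lists in the Thbs4 difference was not tested. In the exon 6-7 line the order was another: WT865, whose choroid plexus sum was 44.3 against 3999 to 8660 in the other mice, had that line's highest Thbs4. Astrocyte markers had a median knockout difference of 0.03 in the exon 7 line, with overlapping sums. Of the 16 markers 10 were above 0 and 6 below, from -0.17 for Gjb6 to 0.34 for Aldh1l1, with Gfap at 0.29. For each of the 16 the genotypes overlapped.

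In the exon 6-7 line Thbs4 did not pass the test. The wild-type mice WT778, WT809 and WT865 were at 4.04, 5.00 and 7.06 scaled FPKM and the knockouts KO776, KO777 and KO864 at 3.46, 4.40 and 5.91. Each group spans most of the range of the other. The log2 difference was -0.18 (SE 0.301, 95% interval -0.84 to 0.47, limma adjusted p = 0.9998, exact permutation p = 0.6), and 0.10 is the smallest p that 3 against 3 mice allow. Without WT865 it was 0.00. Whether the 2 knockout differences differ was not tested, since such a test would use the values that chose Thbs4. Between the lines, taken over both genotypes, Thbs4 averaged 4.98 ± 1.32 in the exon 6-7 and 7.03 ± 4.77 in the exon 7 line (SD, n = 6 each), a log2 difference of 0.25 (95% interval -0.21 to 0.71, limma adjusted p = 0.301, exact permutation p = 0.45). That difference was 0.02 in set A and 0.37 in set B. It passed with a term for the set (0.37, limma adjusted p = 0.0397), with array weights (0.46, limma adjusted p = 0.0161) and without KO969 (0.44, limma adjusted p = 0.0264). The exon 7 mean holds the knockout values that chose Thbs4, so none of these line tests of Thbs4 counts as support.

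Thbs3 was the most abundant thrombospondin and fell in the exon 7 line. Thbs3 (ENSMUSG00000028047, chromosome 3, 89215180 to 89226837, plus strand) forms pentamers like Thbs4 and is known from bone. In the exon 6-7 line its levels were 38.0, 57.3 and 49.9 scaled FPKM in the wild types and 41.6, 50.2 and 37.2 in the knockouts, and in the exon 7 line 25.4, 30.7 and 32.1 in the wild types and 23.9, 35.6 and 35.9 in the knockouts. All 6 mice of the exon 7 line lay below all 6 of the other, whereas the genotypes overlapped within each line. The line difference was -0.56 on the log2 scale (SE 0.130, limma adjusted p = 0.00180, and, over 400 relabellings, exact permutation p = 0.005, which no result can go below), -0.67 in set A and -0.51 in set B. The exon 6-7 knockout difference was -0.16 (95% interval -0.56 to 0.24, exact permutation p = 0.5), with 0.13 in set A and -0.30 in set B. It ran from -0.32 without WT778 to -0.03 without WT809. That of the exon 7 line was 0.09, and -0.08 to 0.18 over the other settings. Thbs3 shares 318 of its 4823 exon bases (6.59%) with Mtx1, a mitochondrial import gene on the other strand. Mtx1 was at 69.2 to 80.5 in the exon 6-7 and 28.5 to 40.6 in the exon 7 line, and since the sources used here do not say whether counting used strand, the Thbs3 values are uncertain by the reads the genes share.

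Thbs1 and Thbs2, trimeric thrombospondins known to inhibit blood vessel growth and to promote synapse formation in culture, were low throughout and higher in the exon 7 line. Thbs1 (ENSMUSG00000040152, chromosome 2, 118111876 to 118127133, plus strand) was at 0.503, 0.380 and 0.320 scaled FPKM in exon 6-7 wild types and 0.530, 0.596 and 0.748 in their knockouts. Exon 7 mice had more, at 1.06, 1.58 and 1.14 in wild types and 1.36, 1.59 and 1.74 in knockouts. The lines did not overlap and averaged 0.513 ± 0.153 and 1.41 ± 0.272 (SD, n = 6 each), a ratio of 2.75 (log2 difference 0.67, exact permutation p = 0.005). With no filter on low values the line difference passed (limma adjusted p = 2.33e-05). Each exon 6-7 knockout was above each wild type (log2 difference 0.21, exact permutation p = 0.10, no-filter limma adjusted p = 1), by as little as the gap from 0.503 to 0.530. The exon 7 knockout difference was 0.19, with overlap.

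Thbs2 (ENSMUSG00000023885, chromosome 17, 14665500 to 14694235, minus strand) was at 0.628, 0.737 and 0.703 scaled FPKM in exon 6-7 wild types and 0.822, 1.05 and 1.24 in their knockouts. Exon 7 wild types had 1.21, 1.65 and 1.21 and their knockouts 1.43, 1.78 and 1.51. The exon 6-7 genotypes did not overlap, yet the difference of 0.27 (SE 0.127, 95% interval -0.01 to 0.54) did not pass the test (limma adjusted p = 0.9998, exact permutation p = 0.10). It was 0.16 in set A and 0.32 in set B. Between the lines Thbs2 rose by 0.41 (SE 0.0901, limma adjusted p = 0.00131, exact permutation p = 0.005), with 0.43 in set A and 0.40 in set B, although KO864 of the exon 6-7 line lay above the lowest exon 7 mice. Beside the exon 6-7 values, the meningeal and fibroblast markers summed to 115 to 193 scaled FPKM in wild types and 179 to 218 in knockouts. Of those 12 markers 11 had a difference above 0 (49.4% of all genes), with a median of 0.40, and 7 were higher without overlap (5.02% of all genes). The 12 choroid plexus markers were all above 0, with a median of 1.399 and 8 higher without overlap. Their sums did overlap, at 3999, 8660 and 44.3 in WT778, WT809 and WT865 and 6788 to 8461 in knockouts. WT809 thus lay above every knockout, and WT865 far below every other mouse. The 10 oligodendrocyte markers were all below 0, where 49.4% of all genes were above 0. They summed to 5693 to 7058 in wild types and 4974 to 5103 in knockouts, without overlap. Sums of the excitatory and the immature neuron markers also lay lower in knockouts without overlap, at 2696 to 2817 against 2502 to 2604 and at 302 to 333 against 270.1 to 283. Of the 10 excitatory markers 3 were above 0 and 7 below, with a median of -0.11. Of the 8 immature neuron markers tested 5 were above 0 and 3 below, with a median of 0.07. Most of the immature neuron sum was Tubb3, which averaged 271 in wild types and 230 in knockouts. The 10 pericyte and smooth muscle markers summed to 96.3 to 123 and 107 to 122. Their part in the Thbs1 and Thbs2 differences was not tested.

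Sparc and Sparcl1 did not pass the test between the exon 6-7 genotypes, and between the lines Sparcl1 was higher and Sparc lower in the exon 7 line, save that Sparc turned under quantile normalization. Sparcl1 (ENSMUSG00000029309, chromosome 5, 104079111 to 104113733, minus strand) was at 481, 573 and 736 scaled FPKM in exon 6-7 wild types and 499, 589 and 688 in their knockouts. The exon 7 wild types had 584, 852 and 803 and the knockouts 581, 890 and 863.5. Genotypes overlapped almost fully, with the set A mouse lowest in each group. The exon 6-7 knockout difference had a 95% interval of -0.46 to 0.45 on the log2 scale and lay within the spread of the mice (limma adjusted p = 0.9998, exact permutation p = 1), and that of the exon 7 line was 0.05. Between the lines Sparcl1 was higher by 0.35 in the exon 7 line (SE 0.147, limma adjusted p = 0.0459, exact permutation p = 0.07), 0.25 in set A and 0.40 in set B. On FPKM as deposited this call was lost (0.20, limma adjusted p = 0.273). It was also lost with no filter and without any 1 of WT778, WT809, KO776, KO777, WT993, WT999, KO990 and KO994, with 0.28 to 0.45 and an adjusted p of up to 0.111 over all mice left out.

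Sparc (ENSMUSG00000018593, chromosome 11, 55394500 to 55423183, minus strand) is made by astrocytes and also by endothelium and microglia. Its levels were 174, 228 and 192 scaled FPKM in exon 6-7 wild types and 182, 206 and 202 in their knockouts. For the exon 7 line they were 120, 190 and 158 in wild types and 134, 185 and 184 in knockouts. The set A mouse was again the lowest of each group. The exon 6-7 knockout difference had a 95% interval of -0.38 to 0.37 (limma adjusted p = 0.9998, exact permutation p = 1), and that of the exon 7 line was 0.12. Between the lines Sparc was lower by a log2 difference of -0.30 (SE 0.121, limma adjusted p = 0.0390, exact permutation p = 0.04), -0.48 in set A and -0.21 in set B. Quantile normalization turned this direction (0.17), so the Sparc difference between lines depends on the scaling. The call was lost with no filter, as TPM (-0.16) and without any 1 of WT809, WT865, KO777, KO864, WT628, WT999 and KO969, with -0.38 to -0.21 and an adjusted p of up to 0.0962 over all mice left out. Sparcl1 made up 74.8 ± 4.02% of the summed pair in exon 6-7 wild types, 74.9 ± 2.08% in their knockouts, 82.8 ± 0.914% in exon 7 wild types and 82.2 ± 0.832% in their knockouts (SD, n = 3 each).

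Gpc6 showed the widest line difference of the 7 genes tested, and Gpc4 was the steadiest. Gpc6 (ENSMUSG00000058571, chromosome 14, 116925315 to 117976544, plus strand) was at 1.27, 0.996 and 1.06 scaled FPKM in exon 6-7 wild types and 1.60, 1.27 and 1.38 in their knockouts. Levels were 3.50, 3.21 and 3.24 in exon 7 wild types and 3.90, 3.13 and 3.39 in their knockouts. The lines did not overlap, and the means of 1.26 ± 0.217 and 3.39 ± 0.283 (SD, n = 6 each) gave a ratio of 2.68. The log2 difference was 0.96 (SE 0.0787, limma adjusted p = 3.07e-07, exact permutation p = 0.005), 0.95 in set A and 0.96 in set B. Between the exon 6-7 genotypes it was 0.19 (95% interval -0.05 to 0.44, limma adjusted p = 0.9998, exact permutation p = 0.2), the lowest knockout falling just under the highest wild type, and between the exon 7 genotypes 0.05.

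Gpc4 (ENSMUSG00000031119, chromosome X, 52053021 to 52165252, minus strand) stayed between 10.6 and 14.3 scaled FPKM. Exon 6-7 wild types had 12.0, 10.9 and 10.6, their knockouts 11.1, 11.5 and 11.7, exon 7 wild types 12.7, 10.8 and 12.6 and their knockouts 14.3, 12.8 and 12.1. All groups overlapped with their counterparts. The exon 6-7 knockout difference was 0.03 (95% interval -0.18 to 0.24, exact permutation p = 0.6), with -0.10 in set A and 0.09 in set B, and that of the exon 7 line 0.11. The line difference of 0.14 did not pass (95% interval -0.01 to 0.28, limma adjusted p = 0.0846, exact permutation p = 0.035), and it was -0.01 on FPKM as deposited.

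**Figure D2:**
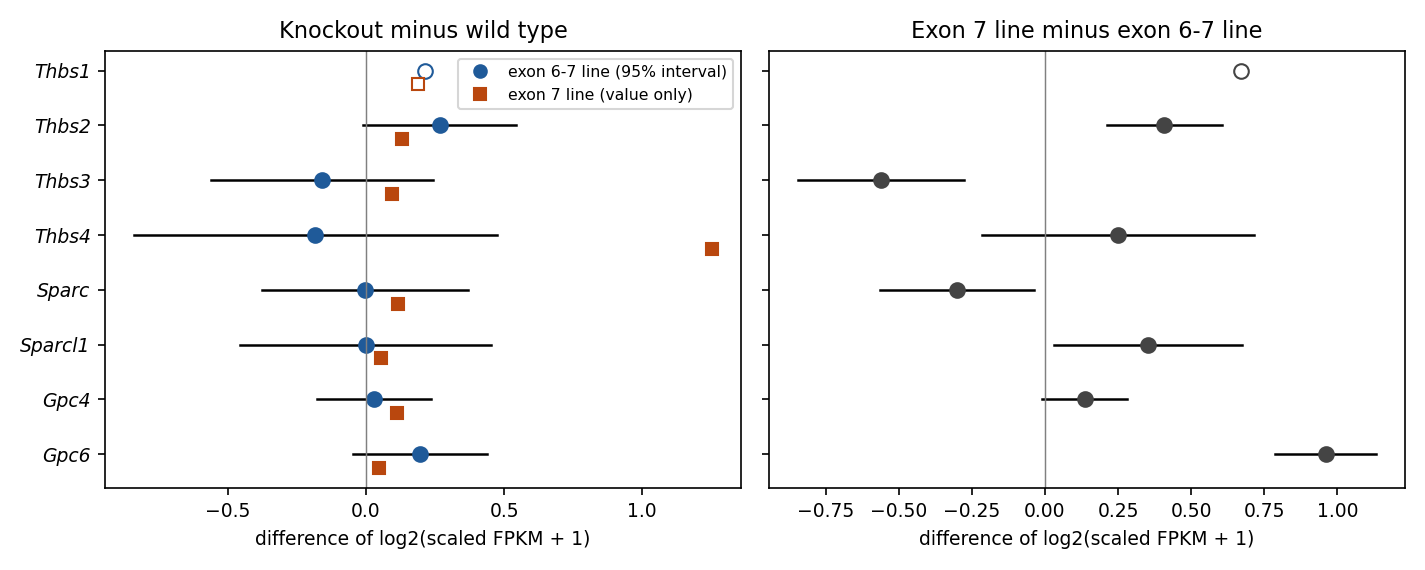
Differences of log2(scaled FPKM + 1), knockout minus wild type in each line (left) and exon 7 line minus exon 6-7 line over both genotypes (right), with 95% limma intervals as bars where a test was made and open symbols for Thbs1, which was not tested. Thbs4 at 1.25 in the exon 7 line stands far from the other values of the left panel, all within -0.18 and 0.27, and Gpc6 is highest and Thbs3 lowest in the right panel.

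Counted over the set, no gene passed the test in the exon 6-7 knockout, where 2 of all 14212 genes passed (0.0141% by limma, with 583 under 0.05 before adjustment). Of the 7 genes tested 3 were above 0 and 4 below, where 49.4% of all genes were above 0, with a median of -0.0010 against -0.0019 over all genes. Of the 8 genes 2, Thbs1 and Thbs2, had knockouts above all wild types, against 5.02% of the genes tested. In the exon 7 knockout 7 of 7 tested genes were above 0, against 46.7% of all genes, with a median of 0.11, and 1 of the 8, Thbs4, had no overlap, against 3.27% for higher genes. The rule used this contrast, so these counts are given as they are. With 1 mouse left out, 4 of the 7 went below 0: Sparc to -0.0601 and Sparcl1 to -0.113 without WT628, Thbs3 to -0.0041 without WT628, and Gpc6 to -0.0198 without KO969. Over all genes limma called 0 in it (0%), with 492 under 0.05 before adjustment. The counts before adjustment depended on the fit: with a term for the library set they were 1519 in the exon 6-7 and 1174 in the exon 7 knockout, and with array weights 1101 and 1530.

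Between the lines 5 of the 7 tested genes passed, Thbs2, Sparcl1 and Gpc6 higher and Thbs3 and Sparc lower in the exon 7 line, which is near the share over all genes (74.8%, 10626 genes). Higher genes made up 37.5% of all genes and lower genes 37.2%, 5333 against 5293. On FPKM as deposited the split was 4475 against 6252 and as TPM 6660 against 4641. Without overlap of the 6 and 6 mice were Thbs1 and Gpc6 (higher, background 30%) and Thbs3 (lower, background 27.4%). Passing in this comparison is the rule in these libraries and does not set these genes apart. The breeding and the handling of the lines cannot be told apart. Among wild types alone, which carry no deletion, Gpc6 averaged 1.11 scaled FPKM in the exon 6-7 and 3.32 in the exon 7 line. In the same order Thbs2 averaged 0.689 and 1.36 and Sparcl1 597 and 746. Thbs3 averaged 48.4 and 29.4 and Sparc 198 and 156. The part of the deletion in the line differences was not tested. The line difference moved with transcript length: over 4 classes of genes by exon length its median was -0.64 in the shortest, then -0.19 and 0.19, and 0.69 in the longest (Spearman rho 0.63 across 14059 genes, which are not independent replicates). Thbs2 lies in the longest class, Gpc6 and Thbs3 in the third, and Thbs4, Sparc, Sparcl1 and Gpc4 in the second. Of the genes that passed, Gpc6 (0.96, class median 0.19), Thbs2 (0.41, class median 0.69) and Sparc (-0.30, class median -0.19) had the sign of their class, while Thbs3 (-0.56, class median 0.19) and Sparcl1 (0.35, class median -0.19) had the other. The part of length in these values was not tested. The exon 6-7 knockout difference also moved with exon length (Spearman rho 0.31 over the same 14059 genes). Its class medians were -0.08, -0.02, 0.01 and 0.05, from shortest to longest. Thbs2 (7003 exon bases), Gpc6 (6425) and Thbs1 (6073) are the longest genes of the set. They also had its highest exon 6-7 knockout differences, at 0.27, 0.19 and 0.21. The part of length in those differences was not tested. The mitochondrial share of summed FPKM was 6.22 to 7.39% in the exon 6-7 and 10.3 to 14.3% in the exon 7 line. In the exon 7 line the set A mice WT628 and KO969 were at 13.6 and 14.3%, and the set B mice at 10.3 to 10.9%. In the exon 6-7 line the set A mice WT778 and KO776 were at 6.72 and 7.39%, and the set B mice at 6.22 to 6.81%.

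Within the family, Thbs3 made up 88.1 ± 2.16% of the summed thrombospondin levels in exon 6-7 wild types, 87.1 ± 4.01% in their knockouts and 82.7 ± 2.53% in exon 7 wild types (SD, n = 3 each). Among exon 7 knockouts it made up 70.6 ± 3.71% and Thbs4 22.2 ± 4.97%, where Thbs4 was at 9.46 to 9.96% on average in the other 3 groups. These shares use the Thbs4 values that chose the set, and a higher share of Thbs4 lowers that of Thbs3. The level of Thbs3 averaged 31.8 ± 6.80 scaled FPKM in exon 7 knockouts and 29.4 ± 3.51 in their wild types (SD, n = 3 each). Among 6 glypicans Gpc1 held 44.4 to 48.2% of the sum by group mean, Gpc5 23.6 to 26.8% and Gpc4 16.2 to 17.6%. Gpc6 held 1.62 and 2.06% in the exon 6-7 groups and 4.48 and 4.69% in the exon 7 groups.

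Across the 12 mice, after the mean of each line was taken out, levels of Sparc and Sparcl1 went together (Pearson r 0.77, Spearman rho 0.63, r 0.57 without the 2 mice farthest in Sparc), as did those of Thbs3 and Sparc (0.76, rho 0.69, 0.83 without the 2 farthest in Thbs3). Thbs3 and Gpc6 went opposite ways (r -0.75, rho -0.78, -0.64 without the 2 farthest in Thbs3). Over the 21 pairs of tested genes r ran from -0.75 to 0.77. These are descriptions over libraries that share the sets: in the exon 7 line the set A mice WT628 and KO969 were the lowest for Thbs3, Sparc and Sparcl1 and the highest for Gpc6.

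The 5 genes most like Thbs4 by Pearson r of line-centred log2 levels over the 12 mice were Selenbp1, a selenium-binding protein (r 0.95, rho 0.92), Ucma, a secreted protein of cartilage (0.93, rho 0.91), Ccdc33, a coiled-coil protein (0.93, rho 0.83), Vit, the matrix protein vitrin (0.92, rho 0.87), and Anp32e, a histone chaperone (0.90, rho 0.80). Without KO990 and KO994, the mice farthest in Thbs4, r was 0.86, 0.83, 0.80, 0.88 and 0.79 in the same order. The genes were picked from all those tested on these same mice, so no r here is independent support. The library set was not taken out. Like Thbs4, Selenbp1 and Ucma were lowest in the set A mouse of every group. Ccdc33, Vit and Anp32e were lowest in it in every group but the exon 6-7 knockouts. The part of the set in this likeness was not tested. Likeness was less even in the exon 6-7 line alone, where r was 0.88 for Selenbp1, 0.45 for Ucma, 0.88 for Ccdc33, 0.92 for Vit and 0.64 for Anp32e, than in the exon 7 line alone, where it ran from 0.93 to 0.99. The exon 7 knockout difference was 0.46 for Selenbp1, 0.92 for Ucma, 1.37 for Ccdc33, 0.40 for Vit and 0.19 for Anp32e, given with no test since they were chosen for likeness to Thbs4.

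**Figure D3:**
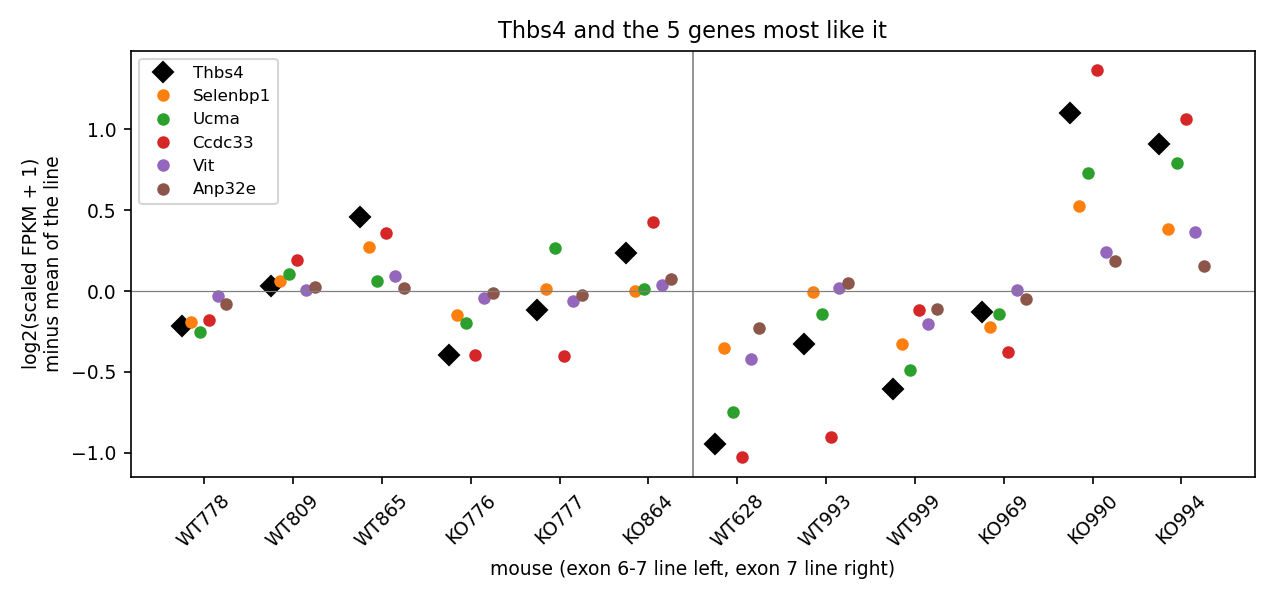
Log2(scaled FPKM + 1) minus the mean of the line (vertical axis) in each of the 12 mice for Thbs4 (black diamonds) and the 5 genes most like it (coloured points). All 6 genes are above the mean of the line in KO990 and KO994 and below it in WT628.

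Receptors and relatives of these factors were followed in 4 lists of 63 genes, of which 56 were tested. In the exon 6-7 knockout 0 of the 56 passed, with 36 above 0 and 20 below, medians of 0.10 for the thrombospondin receptors and binding partners, 0.06 for the SPARC family and hevin partners, 0.04 for the glypicans and their synaptic receptors and -0.03 for other astrocyte regulators. Cacna2d1, the thrombospondin receptor, differed by 0.12 there, Cd47, another thrombospondin receptor, by -0.36, Nlgn1 by 0.07, and the glypican receptors Ptprd, Ptprs and Lrrtm4 by -0.02, 0.05 and 0.03. None of these passed the limma test (adjusted p = 0.9998 each). The exon 7 knockout values of the same genes were -0.10, -0.03, -0.01, -0.23, -0.00 and 0.08, given without a test. Over all genes the exon 6-7 knockout difference moved with exon length (Spearman rho 0.31). The part of length in the exon 6-7 counts and medians of these lists was not tested.

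Between the lines 36 of the 56 were higher and 11 lower in the exon 7 line, where 37.5% of all genes were higher and 37.2% lower. Over all genes this difference moved with exon length (Spearman rho 0.63), and the part of length in the counts and values of these lists was not tested. Of the 15 tested thrombospondin partners 12 were higher and 2 lower. Cacna2d1 was higher, at 41.4 ± 7.996 against 15.3 ± 1.65 scaled FPKM (SD, n = 6 each, log2 difference 1.36, limma adjusted p = 4.53e-07), in the same direction as Thbs1 and Thbs2 and opposite to Thbs3. The lipoprotein receptors Lrp8 and Vldlr rose by 1.59 and 1.19, the adhesion protein gene Nlgn1 by 1.22 and Cd47 by 0.55 (limma adjusted p at most 0.0144). Of the 11 genes of the SPARC family and hevin partners 7 were higher and 1 lower, among them Nrxn3 (1.76), Spock1 (1.72) and Nlgn3 (0.70). The 1 lower gene was Smoc1, a relative of Sparc (-0.26, limma adjusted p = 0.0283). Among the 14 glypicans and receptors 10 were higher and 3 lower. Those with the smallest p were the synaptic receptor Gpr158 (1.54), Ptprd (1.72), the pentraxin Nptx1 (0.72) and the AMPA receptor subunit Gria1 (0.69), with Ptprs at 0.72, Lrrtm4 at 0.54 and Gpc5 at 0.16 (limma adjusted p = 0.0456). Gpc1 did not pass (0.01). Of the 16 other astrocyte regulators 7 were higher and 5 lower. The protease inhibitor Cst3 fell from 2106 ± 295 to 834 ± 34.9 scaled FPKM (SD, n = 6 each, -1.33), and Nrcam (1.24), Wnt5a (0.92) and Vcan (1.01) rose. Comp, the fifth thrombospondin family member, at 0.203 ± 0.0840 and 0.0958 ± 0.0362 scaled FPKM in the 2 lines, and Chrdl1, an astrocyte regulator of AMPA receptors at 0.519 ± 0.144 and 1.33 ± 0.242 (SD, n = 6 each), were too low to be tested.

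**Figure D4:**
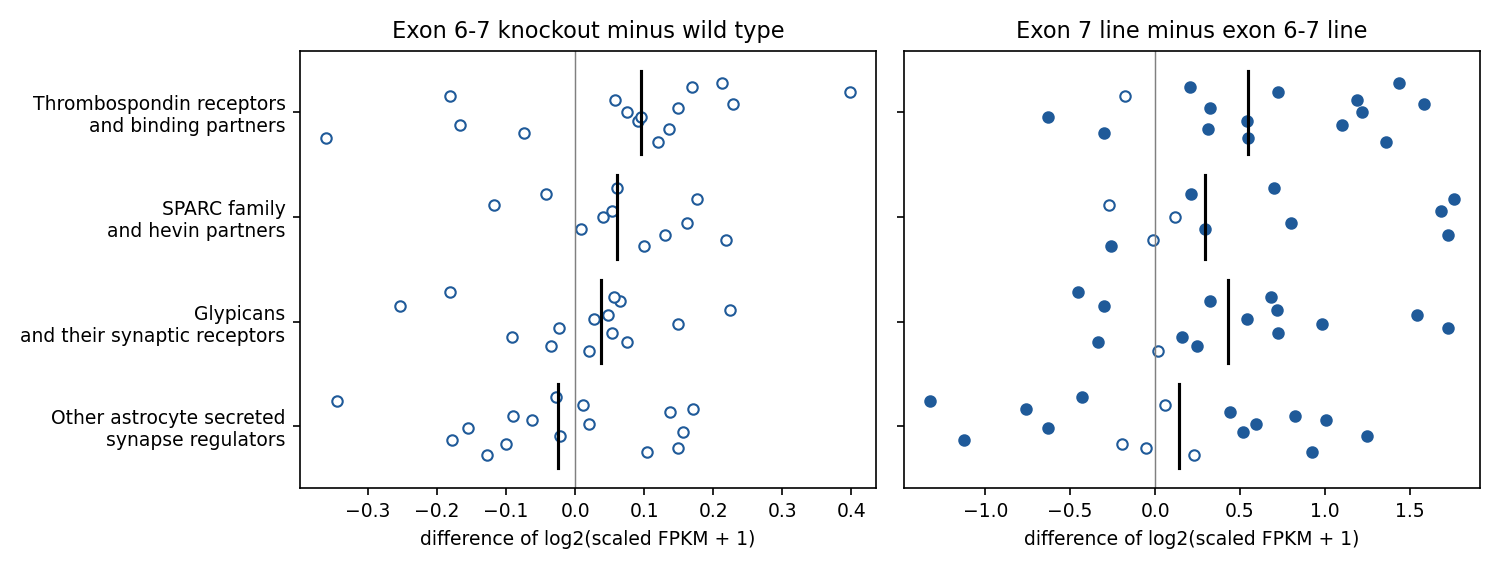
Differences of log2(scaled FPKM + 1) for the tested genes of 4 lists (rows), exon 6-7 knockout minus wild type on the left and exon 7 line minus exon 6-7 line on the right, each point a gene, filled where limma's adjusted p was under 0.05, with a bar at the list's median. No point is filled on the left, and 47 of the 56 are filled on the right.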

How the data were processed

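Hippocampal RNA of 12 mice was isolated with TRIZOL and selected for poly(A) with a TruSeq kit, per the labels' protocols. Tools named in the submitters' processing notes are CASAVA, Cufflinks and GSNAP, with build mm10 and no roles. For each mouse the authors deposited FPKM by Ensembl release 74 gene, per the file headers. Whether counting used strand or split multiply mapped reads is not given in these sources. Depth is not recorded in FPKM, so no counting error is attached to a value.

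Genes missing from a mouse's table were set to 0. Scaling used the median of ratios over 12511 genes with at least 1 FPKM in all mice. Genes with a mean of at least 1 scaled FPKM were tested, without 110 small RNA genes. The test was limma 3.58.1 (limma-trend, R 4.3.3) on log2(scaled FPKM + 1), two-sided, with 4 group means. Benjamini-Hochberg adjustment was over 14212 genes, with a threshold of 0.05. Its code was run on simulated data with independent normal noise, without a line difference or a library set. That run does not show how the test behaves where either is present. Single genes also had two-sided exact permutation tests, over 20 relabellings within a line or 400 of line within genotype. Mouse numbers do not repeat, so the spread in a p-value is that between animals with their libraries; litters are not given. Symbols, lengths and positions came from GENCODE M21, promoters from RefSeq, and tables and plots from Python 3.11.15 with pandas 2.3.3, numpy 2.4.6 and matplotlib 3.10.9.

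The genes described, the lists and the tests were chosen with earlier results of these data known. Named were the 8 genes, Shank2, up to 4 genes of a list with the smallest p among those that passed, 12 receptors or relatives whatever their values, and the 5 genes most like Thbs4. A gene that this rule selects is not reported here. Mtx1 was named after its values were seen. The alternatives tried were a pseudocount of 0.1 or 5, no filter or one at 5 FPKM, FPKM as deposited, quantile normalization, TPM, each line alone, array weights, robust empirical Bayes, the library set as a term or split, and each mouse left out.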

Additional observations from a re-analysis of the deposited data

How the results depend on the processing

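The exon 6-7 knockout count of 2 genes became 5 with no filter and ran from 1 (without WT778, WT865 or KO776) to 6 (without KO864), with 5 without WT809. The exon 7 knockout count of 0 became 1 with a pseudocount of 0.1 and 1 with no filter, and ran from 0 to 2 with a mouse left out (1 without WT993 or KO969, 2 without WT999). The line count of 10626 ran from 8109 to 12124 over the settings and from 10250 to 10585 with a mouse left out. The Shank2 difference ran from -1.10 to -1.01 with a mouse left out, and its adjusted p reached 0.110 without WT865. Some exon 6-7 differences near 0 turned. Sparc gave 0.00053 as deposited, 0.0863 with quantile normalization and 0.0525 as TPM, and -0.0934 to 0.10 with a mouse left out. Sparcl1 gave 0.0034, 0.0872 and 0.0555 in the same settings, 0.0089 with array weights and -0.14 to 0.16 with a mouse left out. Gpc4 ran from -0.0048 to 0.0774 (-0.10 in set A, 0.09 in set B) and Thbs4 from -0.35 to 0.00044 there, the highest without WT865. The Thbs3 difference ran from -0.32 to -0.03. In the exon 7 knockout the differences of Sparc, Sparcl1, Thbs3 and Gpc6 went as low as -0.0601, -0.113, -0.0041 and -0.0198 with a mouse left out. Over the other settings their lowest values were 0.0909, -0.0068, -0.0831 and -0.0038 in the same order. Genes under 0.05 before adjustment in that knockout numbered 963 without KO969 against 492. In the line difference Sparc gave 0.17 with quantile normalization and Gpc4 gave -0.0061 as deposited but passed as TPM (0.28, limma adjusted p = 0.00243) and without WT993 (0.17, adjusted p = 0.0399). The line differences of Thbs2, Thbs3 and Gpc6 kept direction and call in every setting that tested them. The median line difference of all genes was -0.14 as deposited and 0.12 as TPM, against -0.0075. Where a call changed, the cause was not tested. No paired analysis was possible because each mouse number occurs once in the labels. Fitting each line alone gives no line difference.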
